A study of Canis lupus familiaris with 16 samples.

Results

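Peripheral nerve sheath tumors (PNST) were compared with perivascular wall tumors (PWT), 2 soft tissue sarcomas of the dog that look alike on sections. The comparison used 12 of the 16 tumors in the deposited table, 6 of each type, chosen by the molecular identity that the submitters recorded for each tumor. The PNST were S1-03, S1-04, S1-05, S1-09, S1-10 and S2-07, and the PWT were S1-07, S2-03, S2-04, S2-08, S2-09 and S2-11. The 4 fibrosarcomas were left out of the tests. Every tumor was an archived, formalin-fixed and paraffin-embedded tissue block from a client-owned dog, and neither a genotype nor a treatment was recorded. Dogs with PNST were 8 to 13 years old (median 10) and were a Boxer, an Australian Shepherd, an Australian Cattle Dog, an American Cocker Spaniel and 2 entries for a Standard Poodle. Dogs with PWT were 2 to 14 years old (median 12) and were a Plott hound mix, a Golden Retriever, a Tibetan Terrier, a Great Pyrenees, a Labrador Retriever and a mixed breed dog. Grades were 1 in 3 PNST, 1/2 in 1 and 2 in 2, and 1 in 4 PWT, 2 in 1 and 3 in 1. A block holds whole tumor tissue with vessels, immune cells and adjacent skin or muscle, so that fewer cells of a type and less RNA per cell cannot be told apart.

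Nerve sheath tumors arise from Schwann cells, the glia that wrap peripheral axons, or from the perineurial cells and fibroblasts around them. Schwann cells are known for the transcription factor *SOX10*, the calcium-binding protein *S100B* and the neurotrophin receptor *NGFR*. Perivascular wall tumors arise from the pericytes and smooth muscle cells that surround blood vessels, which are known for the growth factor receptor *PDGFRB*, the proteoglycan *CSPG4*, the signaling regulator *RGS5* and the contractile proteins *ACTA2*, *DES* and *MYH11*.

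Several features of these 12 tumors touch every result. The tumor names carry the prefix S1 or S2, and 5 of 6 PNST were S1 while 5 of 6 PWT were S2, so that S1-07 was the only S1 PWT and S2-07 the only S2 PNST. S1 tumors were sequenced in 3 runs and S2 tumors in 1, and the effect of the prefix cannot be told apart from that of tumor type except through those 2 tumors. S1-10 (a PWT by histology) and S2-08 (a fibrosarcoma by histology) owe their molecular identity to the expression values in this same table, so the groups are not independent of what is tested. S1-04 and S1-05 have identical breed, age, reproductive status, site, tumor size and grade and may come from 1 dog. Counts on genes ranged from 1545839 to 4311876 in PNST and from 726025 to 2234165 in PWT. Keratinocyte markers summed to 1119 CPM (counts scaled to a common library total) in S1-04, 1605 CPM in S1-05 and 1325 CPM in S2-03, and to at most 36.1 CPM in the other 9 tumors. Skeletal muscle markers summed to 1297 CPM in S1-07 and 705 CPM in S2-09, and to at most 68.8 CPM in the others.

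Defining markers of the 2 cell types did not separate the tumors. Only 8 of 29 Schwann cell and neural crest markers had enough counts to be tested, which required at least 10 counts in at least 6 tumors. *SOX10* was too low, at 2.39 to 4.73 CPM in PNST (median 3.8) and 1.08 to 3.30 CPM in PWT (median 2.55), and the ranges overlapped. *S100B*, also too low to be tested, reached 74.7 CPM in S1-09 but had a median of 8.36 CPM in PNST and 4.33 CPM in PWT. *NGFR*, also too low, never exceeded 2.88 CPM. *OLIG2*, a glial transcription factor, was at 0 in all 6 PNST, and among the PWT it had 2 counts in S1-07 and 1 in S2-08. Of the testable markers, the cell adhesion gene *L1CAM* was higher in PNST, at 10.5 to 50.9 CPM (median 23.1) against 4.20 to 14.9 CPM (median 6.51), a log2 fold change of 1.74 ± 0.42 (SE, n = 6 and 6; adjusted p = 0.034 by edgeR's quasi-likelihood test). The call was 1 of 8 tested (12.5%, against 1.11% of all genes) and held in 6 of the 12 fits that each left out 1 tumor. *PMP22*, a myelin protein and the most abundant of these markers that was not called, was at a median of 263 CPM in PNST and 224 CPM in PWT (log2 fold change 0.31 ± 0.28).

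The pericyte and smooth muscle markers likewise gave no gene higher in PWT. Of 24 tested markers, 0 were called in that direction, and 2 were called higher in PNST (8.33%, against 1.11% of all genes). These were the endosialin gene *CD248*, at 179 to 374 CPM in PNST and 81.3 to 218 CPM in PWT (log2 fold change 1.12 ± 0.26, adjusted p = 0.032 by edgeR), and the smoothelin gene *SMTN*, at 28.9 to 75.8 and 11.3 to 28.9 CPM (1.19 ± 0.30, adjusted p = 0.039 by edgeR). They were DEGs in 5 and 4 of the 12 fits without 1 tumor. S1-07, a PWT, held the highest *CD248* level of its type. *PDGFRB* ranged from 137 to 394 CPM in PNST (median 304) and from 118 to 299 CPM in PWT (median 225), with a log2 fold change of 0.45 ± 0.30. *RGS5* had nearly equal medians, 104 CPM in PNST and 105 CPM in PWT. *CSPG4* (0.82 ± 0.47), *MYH11* (0.93 ± 0.64), *ACTA2* (0.50 ± 0.62) and *DES* (0.28 ± 0.88) also failed the test, each with overlapping ranges. The perineurial marker *CLDN1*, a tight junction protein, was at 35.6 to 745 CPM in PNST and 252 to 891 CPM in PWT (-0.81 ± 0.64, not called).

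Between the 2 types, 418 differentially expressed genes (DEGs) were found, 146 higher in PNST and 272 higher in PWT. A gene was called a DEG by edgeR's quasi-likelihood test when its adjusted p-value was below 0.05 and its level differed by more than 1 on the log2 scale. Without the fold limit 585 genes passed (4.45%). The DEGs were 3.18% of the 13138 genes tested, 1.11% higher in PNST and 2.07% higher in PWT. Before adjustment, 3405 genes (25.9%) had a p-value below 0.05. All 6 PNST lay above all 6 PWT for 196 genes (1.49%) and below them for 211 (1.61%), and 76 and 108 of these were DEGs. DESeq2's Wald test called 286 genes higher in PNST (1.78% of 16099) and 503 higher in PWT (3.12%). With the 2 tumors of reassigned identity left out, 272 DEGs were found, of which 224 were among the 418. By histological diagnosis 0 were found by edgeR, and unadjusted p-values were below 0.05 for 1945 genes.

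With the prefix as a term in the model, 0 genes remained DEGs, while 1178 (8.97%) were below 0.05 before adjustment. The 146 DEGs higher in PNST had a median log2 fold change of 1.29 without the term and 1.08 with it, and their median SE rose from 0.30 to 0.38. For the 272 DEGs higher in PWT the medians were -1.57 and -1.30, with SEs of 0.34 and 0.41. Each of the 418 kept its direction under the term, but these genes were chosen for their difference in the same tumors, and that choice bears on the direction. Within S1, where 5 PNST were set against S1-07, the median log2 fold changes were 1.01 and -1.37, and within S2, where S2-07 was set against 5 PWT, they were 1.11 and -1.06. The tests within a prefix found 0 DEGs in S1 and 7 in S2 (0.0533%), none of them among the 418. Unadjusted p-values in S1 were below 0.05 for 981 genes. For 40 DEGs higher in PNST and 60 higher in PWT, the change exceeded 1 within both prefixes, and S1-07 and S2-07 each lay beyond all tumors of the other type that shared their prefix. Of these, 38 and 12 were protein-coding, and 23 of the 60 were snoRNA genes. Both counts were taken only among the 418 DEGs, which were chosen on the same tumors, and the share over all genes was not counted.

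**Figure D1:**
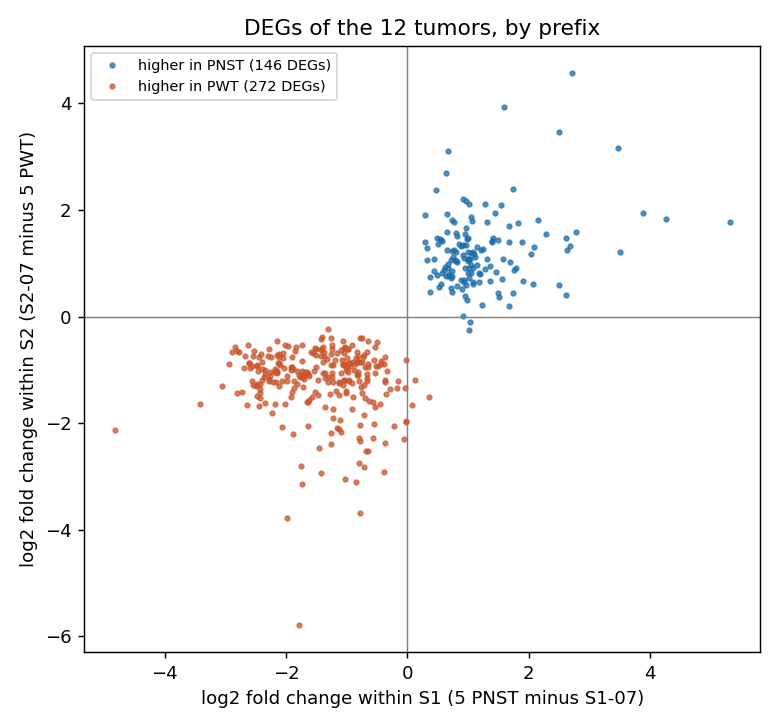
Log2 fold change within S1 (5 PNST minus S1-07, x axis) and within S2 (S2-07 minus 5 PWT, y axis) for the 418 DEGs of the 12 tumors. Most points lie in the lower left (higher in PWT) and upper right (higher in PNST), with medians of -1.37 and 1.01 on the x axis and -1.06 and 1.11 on the y axis, for genes that were selected on the same 12 tumors.

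The genes of smallest p-value in PNST included *SLC1A4*, *PTPRN2*, *SEZ6L2* and *DKK3*. *SLC1A4*, a transporter of neutral amino acids, ranged from 12.8 to 31.6 CPM in PNST (median 16.7) and from 1.40 to 5.78 CPM in PWT (median 4.27), with no overlap. Its log2 fold change was 2.17 ± 0.34 (SE, n = 6 and 6; adjusted p = 0.013 by edgeR), and 2.78 within S1 and 1.59 within S2. *PTPRN2*, a phosphatase-like protein of dense-core secretory vesicles, was at 18.4 to 66.8 CPM in PNST (median 43.5) and 5.31 to 16.8 CPM in PWT (median 6.65). The lowest PNST, S1-03, was just above the highest PWT, S2-03, and the log2 fold change was 2.18 ± 0.37 (adjusted p = 0.015 by edgeR). *SEZ6L2*, a neuronal surface protein, was at 131 to 271 CPM in PNST (median 200.0) and 11.5 to 77.6 CPM in PWT (median 32.3), and *DKK3*, a secreted protein of the dickkopf family, at 99.8 to 300.1 CPM (median 172) and 22.9 to 75.8 CPM (median 32.8). Their log2 fold changes were 2.27 ± 0.42 (adjusted p = 0.015 by edgeR) and 2.06 ± 0.33 (adjusted p = 0.013 by edgeR). For *DKK3*, S1-07 was the highest PWT.

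**Figure D2:**
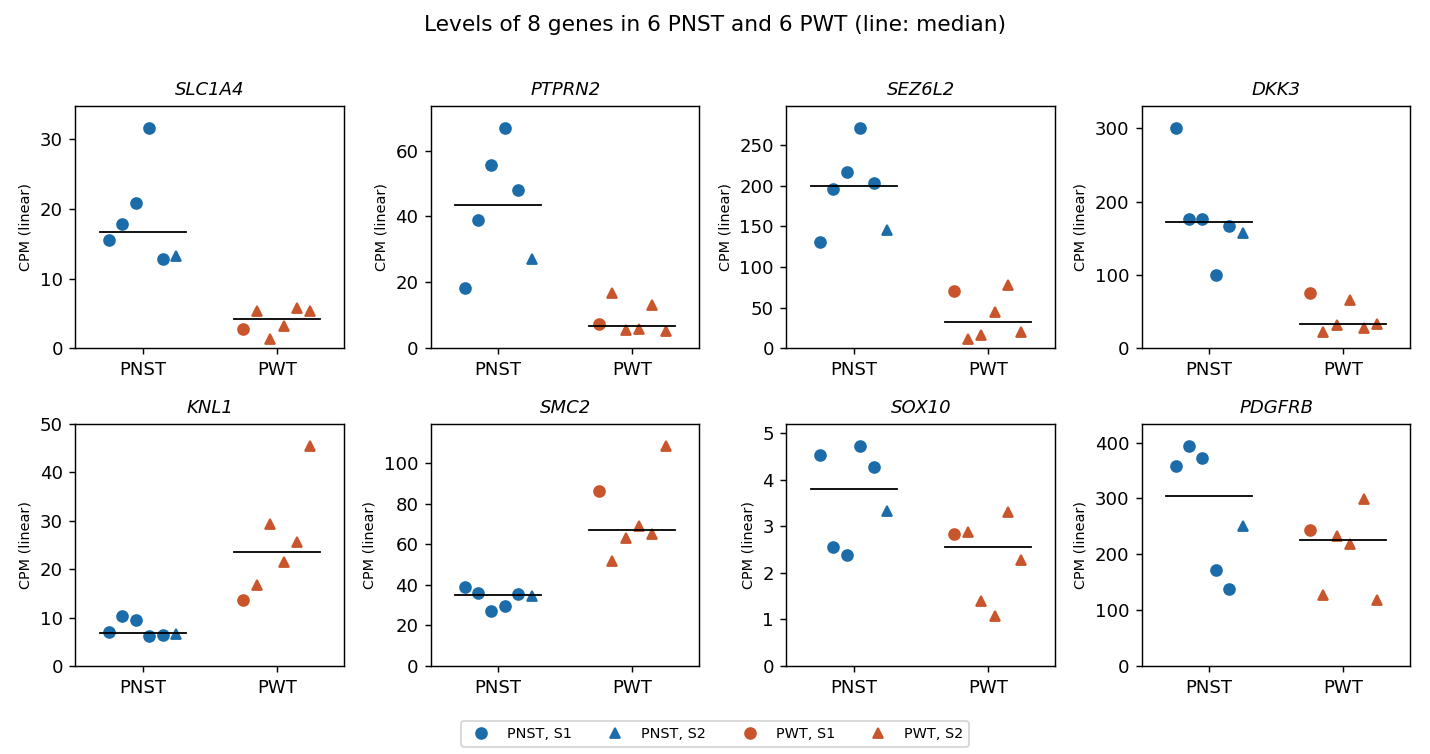
Levels of 8 genes in CPM on linear axes, 1 point per tumor, with circles for S1, triangles for S2 and a line at the median of each type. For *SLC1A4*, *PTPRN2*, *SEZ6L2* and *DKK3* all 6 PNST lie above all 6 PWT, for *KNL1* and *SMC2* all 6 lie below, and for *SOX10* and *PDGFRB* the types overlap.

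Others in this group had different roles. The cytokine gene *IL16* was at 22.8 to 151 CPM in PNST and 4.20 to 24.8 CPM in PWT, so that S1-10, the lowest PNST, lay below S2-09, the highest PWT (log2 fold change 2.89 ± 0.53, adjusted p = 0.015 by edgeR). The ephrin receptor *EPHB3* was at 18.3 to 63.6 and 9.42 to 14.0 CPM (1.86 ± 0.34), with no overlap between the types. Smaller but tight differences were seen for the peptidyl-prolyl isomerase *PPIA* (106 to 145 against 43.0 to 73.4 CPM), the dynein co-chaperone *NUDCD3* (69.9 to 97.6 against 33.6 to 49.3 CPM), and the lysosomal proteins *NPC2* (92.9 to 124 against 41.8 to 61.7 CPM) and *MAN2B1* (126 to 232 against 73.6 to 97.1 CPM). Their log2 fold changes were 1.15, 1.05, 1.00 and 1.05. *NPC2*, at the fold limit, was a DEG in 8 of the 12 fits that each left out 1 tumor, though its adjusted p-value stayed at 0.035 or lower in all 12. *SLC1A4*, *PTPRN2*, *SEZ6L2*, *IL16* and *EPHB3* stand on the study's own lists, which were chosen on these tumors. The study's list of genes low in PWT also holds the symbol PP1A, which matched no gene in the counts and may stand for *PPIA*.

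A few neuronal and synaptic genes differed between the types. Of 31 such genes tested, 5 were DEGs higher in PNST (16.1%, against 1.11% of all genes) and 1 was higher in PWT, and the median log2 fold change was 1.03, against 0.00 for all genes. With the prefix as a term the median was 0.43 and 0 were DEGs, and with S1-10 and S2-08 left out 1 was. With protein-coding genes tested alone 3 were. The summed list overlapped between the types. The list was drawn up with earlier results of these tumors known, and 4 of its 6 DEGs stand on the lists of type-specific genes that the study chose on these tumors. The postsynaptic scaffold gene *SHANK1* was at 10.8 to 19.9 and 1.40 to 8.25 CPM (1.53 ± 0.31, adjusted p = 0.020 by edgeR), and the acetylcholine receptor subunit *CHRNB2* at 15.3 to 54.5 and 2.80 to 19.8 CPM (1.46 ± 0.38, adjusted p = 0.043 by edgeR). The active zone gene *BSN* was higher as well (1.09 ± 0.29, adjusted p = 0.048 by edgeR). *REST*, which encodes the repressor of neuronal genes, was the member higher in PWT, at 31.1 to 127 CPM against 27.8 to 42.8 CPM (-1.06 ± 0.28, adjusted p = 0.043 by edgeR). *REST* differed by -0.03 within S1 and -0.82 within S2. In the 12 fits that each left out 1 tumor, *REST* was a DEG in 3 and *CHRNB2* in 4. Of the 31 genes, 26 had a positive log2 fold change.

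Extracellular matrix genes were more often higher in PNST than in PWT. Among 39 matrix glycoproteins, proteoglycans and their enzymes, 6 were DEGs higher in PNST (15.4%, against 1.11% of all genes) and 0 were higher in PWT. The median log2 fold change was 0.64, or 0.50 with the prefix as a term. It was 0.64 within S1 but 0.04 within S2, where S2-07 was the only PNST. The elastic fiber protein *FBLN2* was at 599 to 1056 CPM in PNST (median 983) and 193 to 588 CPM in PWT (median 310), with a log2 fold change of 1.32 ± 0.27 (adjusted p = 0.020 by edgeR) and no overlap. The chondroitin synthesis gene *CHPF2* was at 71.1 to 101 and 34.1 to 56.1 CPM (1.05 ± 0.18, adjusted p = 0.015 by edgeR), and *EFEMP2*, another elastic fiber protein, at 24.4 to 58.2 and 9.10 to 34.5 CPM (1.32 ± 0.31), with S1-07 the highest PWT. *TNN*, a tenascin, was at 5.33 CPM or lower in all PWT but varied from 1.18 to 146 CPM in PNST (4.17 ± 0.86). The growth factor binding protein *LTBP4* (1.18 ± 0.28) and the chondroitin synthesis gene *CHPF* (1.34 ± 0.34) completed the 6. Fibrillin-1 (*FBN1*), the most abundant member that was not called, had medians of 5268 and 3744 CPM (0.64 ± 0.34). Of the 6 DEGs, 3 stand on those same lists. In the 12 fits that each left out 1 tumor, *EFEMP2* was a DEG in 3 and *TNN* in 5.

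Of 27 collagen and basement membrane genes, 26 had a positive log2 fold change and 2 were DEGs higher in PNST (7.41%, against 1.11% of all genes). The median of the 27 was 0.61, and also 0.61 with the prefix as a term. The laminin chain *LAMC3* was at 5.32 to 57.8 CPM in PNST (median 36.4) and 4.55 to 9.08 CPM in PWT (median 7.18), a log2 fold change of 2.20 ± 0.51 (adjusted p = 0.030 by edgeR). *COL1A1*, the main chain of type I collagen, was at 3935 to 13122 CPM (median 6015) and 1770 to 4292 CPM (median 2293), a log2 fold change of 1.38 ± 0.35 (adjusted p = 0.040 by edgeR), with S1-04 the highest PNST. Its partner chain *COL1A2* had medians of 5206 and 3445 CPM and was not called (0.90 ± 0.34, adjusted p = 0.12 by edgeR). With S1-10 and S2-08 left out, 0 genes of this list and 3 of the 39 other matrix genes were DEGs. Of 38 genes of the secretory pathway, 3 were DEGs higher in PNST (7.89%, against 1.11% of all genes), the cargo receptor *SURF4* (1.02 ± 0.21), the translocon-associated *NCLN* (1.25 ± 0.28) and the disulfide isomerase *PDIA4* (1.00 ± 0.23). The collagen lysyl hydroxylase *PLOD2* was the 1 gene higher in PWT, at 91.8 to 267 CPM against 50.4 to 142 CPM (-1.16 ± 0.31, adjusted p = 0.044 by edgeR). Calnexin (*CANX*), the most abundant of these genes that was not called, had medians of 563 and 644 CPM (-0.11 ± 0.17). Of the 4 secretory DEGs, 2 stand on the study's lists, and 1 gene of the list was a DEG with S1-10 and S2-08 left out. In the 12 fits that each left out 1 tumor, *COL1A1*, *PDIA4* and *PLOD2* were DEGs in 4, *LAMC3* in 5, *NCLN* in 6 and *SURF4* in 7.

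Some mitosis genes were lower in PNST. Of 42 tested, 10 were DEGs higher in PWT (23.8%, against 2.07% of all genes) and 0 were higher in PNST, and the median log2 fold change was -0.76, with 6 genes positive. Of the 10, 7 stand on the study's own list of genes low in PNST and are not independent evidence of the direction. Summed over the list, mitosis genes reached 547 to 653 CPM in PNST and 676 to 1341 CPM in PWT. The types did not overlap, but S1-07 at 676 CPM was close to the highest PNST, S1-03 at 653 CPM, and S2-11, the grade 3 tumor, was the highest. *KNL1*, the scaffold of the outer kinetochore, was at 6.20 to 10.2 CPM in PNST (median 6.88) and 13.6 to 45.5 CPM in PWT (median 23.6), a log2 fold change of -1.71 ± 0.30 (adjusted p = 0.015 by edgeR). *SMC2*, a condensin subunit, was at 26.9 to 38.8 CPM (median 34.8) and 51.6 to 108 CPM (median 67.1), a log2 fold change of -1.14 ± 0.20 (adjusted p = 0.015 by edgeR). The S-phase cyclin *CCNA2* (-1.43 ± 0.29) and the spindle motor *KIF11* (-1.64 ± 0.34) had adjusted p-values of 0.020 by edgeR.

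With the prefix as a term the list's median was -0.47 and 0 of its genes were DEGs. The median was -0.16 within S1, where S1-07 was the only PWT, and -0.81 within S2, where S2-07 was the only PNST. *KNL1* differed by -0.79 within S1 and -2.04 within S2, while *SMC2* differed by -1.36 and -1.05. Over all genes, the test of the difference between the within-prefix effects called 1 gene (0.00761%), which was not a mitosis gene, so that a difference between the prefixes was not shown, and 680 genes (5.18%) were below 0.05 before adjustment. With S1-10 and S2-08 left out, 3 mitosis genes were DEGs. Of 23 DNA replication genes, 2 were DEGs higher in PWT (8.70%, against 2.07% of all genes). These were the chromatin regulator *ATAD2* (-1.04 ± 0.21) and the ribonucleotide reductase subunit *RRM2* (-1.40 ± 0.30), and both stand on the study's list of genes low in PNST. The helicase subunit *MCM7*, the most abundant of the 23 that was not called, had medians of 85.6 CPM in PNST and 52.8 CPM in PWT (0.57 ± 0.29).

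The other protein-coding genes with the smallest p-values in PWT had roles in membrane traffic, signaling and protein turnover. *RABGGTB*, a subunit of the enzyme that attaches lipids to Rab GTPases, was at 57.3 to 116 CPM in PNST (median 66.9) and 111 to 242 CPM in PWT (median 203), with S2-07 the highest PNST (log2 fold change -1.35 ± 0.24). In humans the introns of this gene hold snoRNA genes. The small GTPase *RAP1A* was at 38.7 to 60.6 and 75.1 to 169 CPM (-1.16 ± 0.21) and the ubiquitin-conjugating enzyme *UBE2B* at 20.3 to 52.8 and 56.1 to 122 CPM (-1.34 ± 0.25). *STX11*, a syntaxin of immune and other cells, was at 4.43 to 8.89 and 10.7 to 35.2 CPM (-1.71 ± 0.31), and *GUF1*, a mitochondrial translation factor, at 12.8 to 19.4 and 24.3 to 33.9 CPM (-1.001 ± 0.19), which was a DEG in 5 of the 12 fits without 1 tumor. *RASSF9* was at 15.7 to 28.4 and 24.8 to 57.8 CPM (-1.24 ± 0.23), with S2-08 the lowest PWT. Each of these 6 had an adjusted p-value of 0.015 or 0.016 by edgeR. Of the 6, *RABGGTB* and *RASSF9* overlapped between the types. *RAP1A*, *UBE2B* and *RASSF9* stand on the study's own lists.

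Of 13 endothelial genes tested, *CALCRL*, a receptor for adrenomedullin and CGRP, was the 1 called, as higher in PWT (7.69%, against 2.07% of all genes). It ranged from 27.5 to 125 CPM in PNST (median 92.8) and from 126 to 362 CPM in PWT (median 254), so that S2-07 at the top of the PNST nearly met S2-03 at the bottom of the PWT. The log2 fold change was -1.57 ± 0.32 (adjusted p = 0.020 by edgeR), and it was a DEG in all 12 fits that each left out 1 tumor. It stands on the study's list of genes high in PWT, chosen on these tumors. The endothelial gene *VWF* had medians of 158 and 121 CPM (0.47 ± 0.36, not called), and the summed list overlapped between the types (315 to 785 and 424 to 875 CPM). The sarcomere gene *TTN* was also called (-3.11 ± 0.82, adjusted p = 0.044 by edgeR), with 21.2 to 741 CPM in PWT and 17.7 to 35.7 CPM in PNST. With S1-07 and S2-09, the tumors with skeletal muscle markers, left out, *TTN* was no longer a DEG (log2 fold change -0.37, adjusted p = 0.43 by edgeR).

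Small nucleolar RNA (snoRNA) genes made up the largest share of the genes higher in PWT. These RNAs guide chemical modification of ribosomal RNA, and most are cut from introns. By RefSeq gene type, 125 of 244 snoRNA genes tested were DEGs higher in PWT (51.2%) and 0 were higher in PNST, against 87 (0.769%) and 142 (1.25%) of 11317 protein-coding genes. The median log2 fold change over the 244 was -1.43, and -1.12 with the prefix as a term. Of 15 guide RNA genes, 6 were higher in PWT (40%), as were 8 of 46 small nuclear RNA genes (17.4%). Of 1045 long noncoding RNA genes 24 were higher in PWT (2.30%), a share near the 2.07% of all genes. Reads on snoRNA genes were 4.39% to 9.21% of all counts on genes in PNST (median 5.28%) and 9.61% to 20.8% in PWT (median 15.2%). S2-07 had the highest share among PNST and S2-08 the lowest among PWT, while S1-07 was at 14.1%. With protein-coding genes tested and normalized alone, 82 DEGs were higher in PNST and 84 in PWT. Reads on no annotated gene were 46.1% to 54.6% of those listed in PNST (median 47.7%) and 48.2% to 66.7% in PWT (median 54.9%). Whether library preparation or RNA fragment length had a part in these shares was not tested.

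Among single noncoding genes, the guide RNA gene *LOC119870569* had the smallest p-value of all genes, at 12.1 to 26.1 CPM in PNST (median 14.2) and 42.6 to 71.5 CPM in PWT (median 53.3), a log2 fold change of -1.78 ± 0.23 (adjusted p = 0.013 by edgeR). The snoRNA gene *LOC119864851* was at 23.9 to 67.2 CPM and 86.9 to 321 CPM (-2.42 ± 0.35, adjusted p = 0.013 by edgeR). In both, S2-07 was the highest PNST, and neither overlapped. Another snoRNA gene, *LOC119872742*, was at 4.82 to 24.4 and 22.1 to 124 CPM (-2.95 ± 0.42), with S2-07 above the lowest PWT. Counts of snoRNA genes with near-identical copies are uncertain, since reads that aligned to more than 1 place were not counted.

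Few microRNA genes had enough counts to be tested. Of 12 tested, 3 were DEGs higher in PWT (25%, against 2.07% of all genes) and 11 had a negative log2 fold change, with 0 DEGs under the prefix term. Summed over all 491 microRNA genes of the table, of which 225 were at 0, the level was 245 to 539 CPM in PNST and 703 to 1597 CPM in PWT with no overlap. *MIR6516* was at 36.6 to 77.4 CPM in PNST and 114 to 265 CPM in PWT (-1.61 ± 0.24, adjusted p = 0.013 by edgeR), and was equally different with the prefix as a term (-1.61). *MIR1836* (-1.59 ± 0.30) and *MIR125A* (-1.94 ± 0.48, called in 5 of 12 fits without 1 tumor) were the others. Of 40 transfer RNA genes tested, 3 were DEGs higher in PWT (7.5%, against 2.07% of all genes). The median of the 40 was -1.42, which moved to -0.47 with the prefix as a term. *TRNAE-UUC* had the smallest p-value of the 3, at 1.13 to 7.22 CPM in PNST and 8.63 to 20.5 CPM in PWT (-2.19 ± 0.42, adjusted p = 0.017 by edgeR). All 3 stand on the study's own lists.

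**Figure D3:**
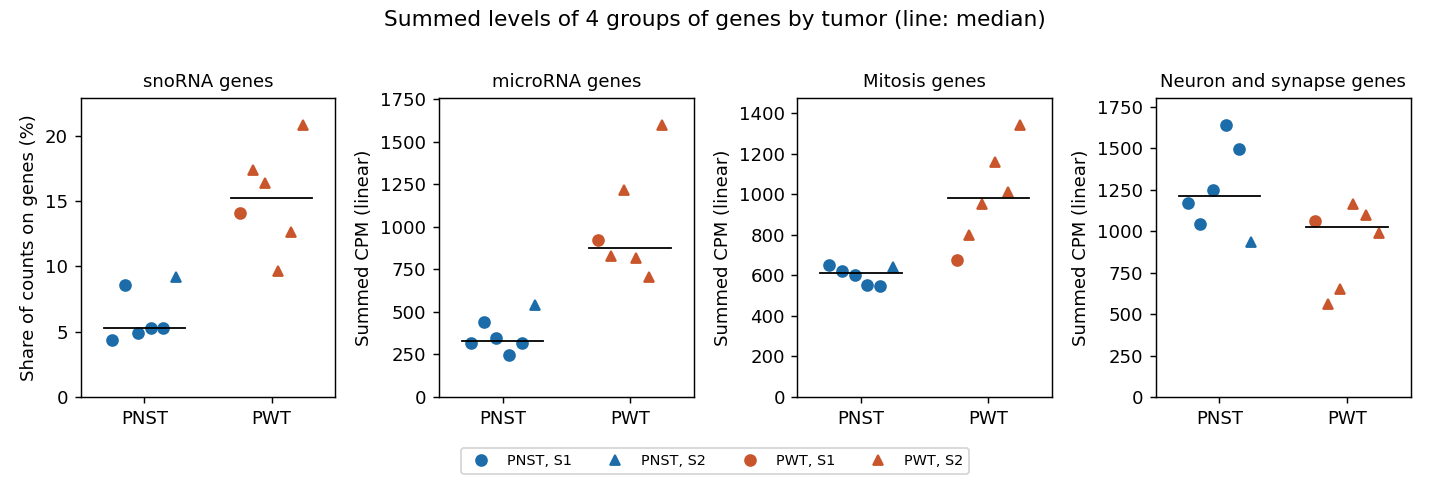
Share of counts on snoRNA genes (percent) and summed CPM of microRNA, mitosis, and neuron and synapse genes in each tumor, on linear axes from 0, with circles for S1, triangles for S2 and a line at the median. The types do not overlap for the first 3 groups, at 4.39% to 9.21% against 9.61% to 20.8% for snoRNA genes, and they overlap for the neuron and synapse sum, at 932 to 1638 CPM against 560 to 1163 CPM.

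Several other lists held few or no DEGs. Of 33 RAS-MAPK and nerve sheath tumor suppressor genes tested, 0 were DEGs, with a median log2 fold change of -0.14 and 8 genes at an unadjusted p-value under 0.05 by edgeR. The tumor suppressors *SMARCB1* (0.90) and *LZTR1* (0.74) had adjusted p-values below 0.05 by edgeR but differed by less than the fold limit. DESeq2 called 0 of the list, and 1 was called with S1-10 and S2-08 left out. *NF1*, the RAS inhibitor lost in neurofibromatosis, ranged from 153 to 274 CPM in PNST and from 209 to 306 CPM in PWT (-0.21 ± 0.19). Of 17 PDGF and Notch pathway genes, 0 were DEGs, with 2 at an unadjusted p-value under 0.05, and *NOTCH2*, the most abundant, had medians of 1515 and 1379 CPM (0.13 ± 0.22). Of 12 macrophage genes, 0 were DEGs and 0 had an unadjusted p-value under 0.05, and *CSF1R*, the receptor that macrophages need, was at 77.4 to 203 and 59.9 to 167 CPM. Of 71 ribosomal protein genes 1 was a DEG (1.41%), *RPL29* (1.17 ± 0.28), which was called in 4 of 12 fits without 1 tumor. Of 59 oxidative phosphorylation subunits 1 was a DEG (1.69%), *NDUFA13* (1.22 ± 0.25), which stands on the study's list of genes low in PWT. Both were higher in PNST, and both shares were near the 1.11% of all genes. In simulated counts for these 12 tumors, 83.2% of genes changed by a factor of 4 had an adjusted p-value below 0.05 by edgeR, with no fold limit applied. The share was 21.6% for genes changed by a factor of 2, so that most such differences were missed in the simulation. It changed 200 of 13138 genes and held no prefix effect, so these shares cannot be carried over to the tests here.

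The genes that the study had chosen as specific to a type by comparing it with both others were mostly DEGs here as well. Of those tested, 20 of 21 genes high in PNST and 19 of 24 low in PWT were higher in PNST, and 17 of 21 low in PNST and 19 of 24 high in PWT were higher in PWT. These lists were chosen on the same tumors and are not independent evidence of direction.

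**Figure D4:**
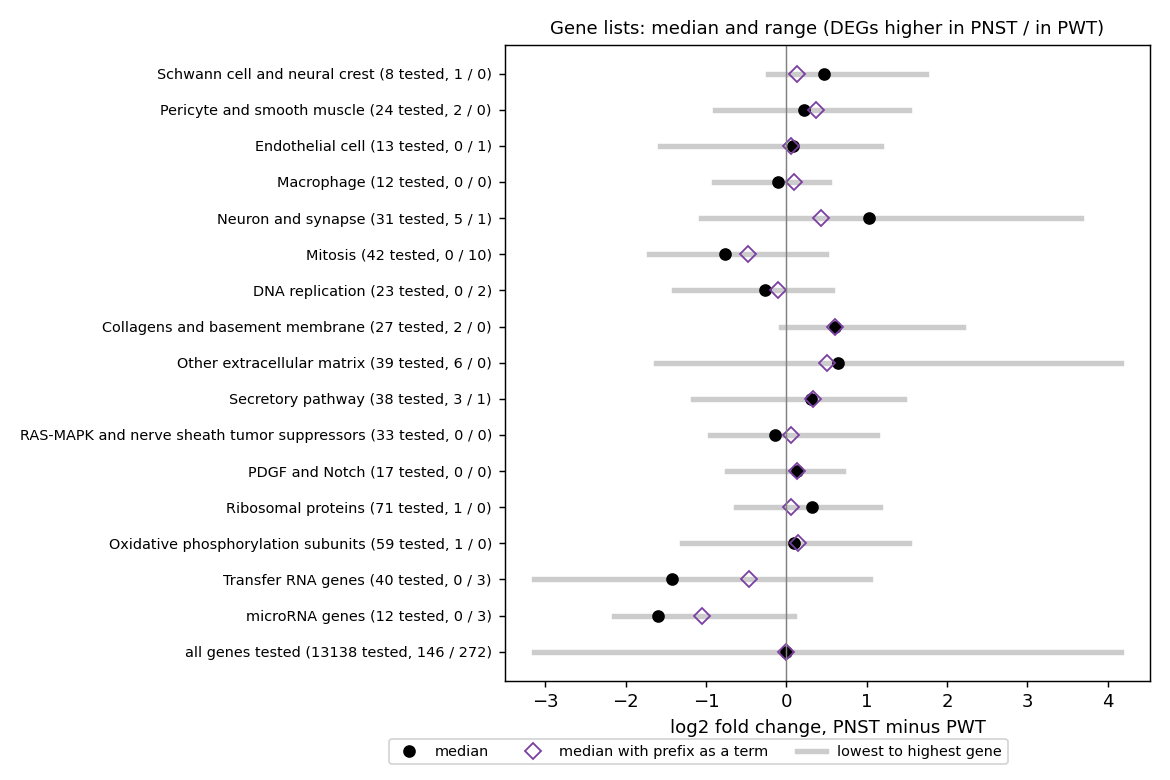
Median log2 fold change (PNST minus PWT) of the genes in each list, as filled circles, with the median under the prefix term as open diamonds and a gray bar from the lowest to the highest gene. Labels give the number of genes tested and of DEGs higher in PNST and in PWT, from 5 and 1 for neuron and synapse genes to 0 and 10 for mitosis genes, and the median of all 13138 genes lies at 0.00.

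Each tumor was also placed between the 2 types on genes chosen without it. The 100 genes of smallest p-value in each direction were taken from the fit to the other 11 tumors, and the median position of the left-out tumor was scaled so that 0 is the mean of the other PWT and 1 that of the other PNST. The 5 S1 PNST lay between 0.85 and 1.06, and S1-10 was at 0.99. S2-03, S2-04, S2-09 and S2-11 lay between -0.14 and 0.14. The remaining 3 tumors were intermediate, S2-07 (PNST) at 0.41, S1-07 (PWT) at 0.45 and S2-08 (PWT) at 0.55. Thus the only PNST with the prefix S2 lay nearer the PWT mean, and S1-07 nearly midway. With S2-07 left out all other PNST were S1, and with S1-07 left out all other PWT were S2. Position between the types therefore cannot be told apart from position between the prefixes for these tumors. S1-10 and S2-08 owe their labels to expression in this same table, so their positions are not independent of those labels. For S2-07, 36% of the 200 genes were nearer the PNST mean, and for S1-07 45%. In the fibrosarcomas, which the fit did not use, the DEGs higher in PNST were higher in S1 than in S2, with a median difference of 0.55 (log2) between 3 S1 tumors and 1 S2 tumor, and those higher in PWT were lower in S1, with a median of -0.68, while the median of all genes was -0.03. These medians have no replicate check in S2.

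**Figure D5:**
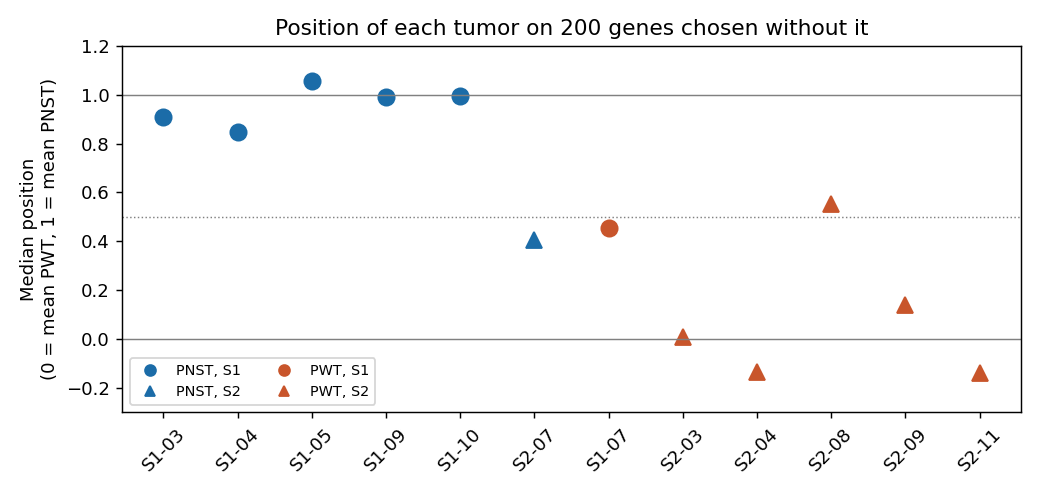
Median position of each tumor on 200 genes chosen from the other 11 tumors, where 0 is the mean of the other PWT and 1 the mean of the other PNST (linear y axis, dotted line at the midpoint). The 5 S1 PNST lie between 0.85 and 1.06, 4 S2 PWT between -0.14 and 0.14, and S2-07, S1-07 and S2-08 at 0.41, 0.45 and 0.55.

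Single tumors moved the number of DEGs. It was 671 without S1-07, 653 without S2-07 and 581 without S2-08, the 3 tumors of intermediate position, and lay between 151 (without S2-04) and 285 (without S2-03) when any of the other 9 was left out. Without S1-07 every PWT left was S2, and without S2-07 every PNST left was S1. In those 2 fits the higher counts cannot be assigned to type rather than prefix. Without S1-04, S1-05 and S2-03, the tumors with keratinocyte transcripts, 1 DEG was found, while unadjusted p-values were below 0.05 for 2058 genes, and 4 PNST and 5 PWT remained. The 418 genes then had medians of 1.14 and -1.52 where a value was available (383 genes). Without S1-07 and S2-09, the tumors with muscle transcripts, 471 DEGs were found, of which 297 were among the 418.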

How the data were processed

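RNA from formalin-fixed, paraffin-embedded tumors was depleted of ribosomal RNA and sequenced on an Ion Proton. The authors aligned reads with STAR to ROS-canfam-01 and deposited raw read counts per gene from htseq-count, with 41818 genes and no normalization. Whether counting used strand is not given in the sources used here, so overlapping and antisense genes are uncertain. Counts of the runs of each tumor were summed here, and rows that name no gene were left out (genes held 22.9% to 30.6% of the reads listed in these 12 tumors). Columns of other series numbered 0.

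Genes that reached 10 counts in 6 or more of the 12 tumors were tested with edgeR 4.0.16 (quasi-likelihood test, TMM factors, Benjamini-Hochberg adjustment, R 4.3.3), log2 fold changes being PNST minus PWT. CPM are edgeR's library-scaled counts after TMM. DESeq2 1.42.0 (Wald test) was 1 of 31 alternatives, 3 of them added after seeing the data. The study itself used DESeq2 and tried ComBat-seq, which was not applied here. In simulated counts with 200 of 13138 genes changed, 5.66% of the genes with an adjusted p-value below 0.05 by edgeR were false, with no fold limit applied. The simulation held no prefix effect and drew the 12 tumors independently, so this share cannot be carried over to the DEGs found here. Tumors were treated as separate samples, and p-values measure the spread between them, although S1-04 and S1-05 may come from 1 dog. These 2 differed by a chi-square per degree of freedom of 12.9 over genes, the lowest of the PNST pairs (next 17.7, highest 60.9). The lowest PWT pair was at 8.40. The measure took raw counts and was not adjusted for depth. The PNST pair at 17.7 also held S1-05, the PNST with the fewest counts (1545839). The lowest PWT pair held S2-04, the PWT with the fewest (726025). No value for repeat runs of 1 library was computed, so these values do not settle whether S1-04 and S1-05 share a dog or a tumor. Gene types came from RefSeq (UU_Cfam_GSD_1.0) by symbol, matched for 39588 genes and not for 2230. Coordinates and sequences were not used here.

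Named genes were the 10 DEGs of smallest p-value in each direction with symbols other than LOC, TRNA and MIR, the 3 of smallest p-value in each direction among those, up to 4 DEGs and the most abundant uncalled member per list, DEGs that held within both prefixes, and 12 defining markers. Some genes that this rule takes in are not reported here. *BSN*, *LTBP4*, *CHPF*, *NF1*, *SMARCB1* and *LZTR1* were named after their values were seen. Members and lists were chosen with earlier results of these data known.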

Additional observations from a re-analysis of the deposited data

Results flagged for a closer look

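In 248 groups of 6 tumors, 1 per type and reported gene or summed measure, the outermost tumor was compared with its nearest neighbor. The gap between them was divided by the range of all 6, and 24 stood apart by Dixon's criterion (above 0.625). Chance gives about 1 in 20 only for independent values of normal distribution. The measures here were on linear scales and shared the same tumors, so 24 of 248 cannot be read as an excess. S2-07, the only S2 PNST, was the one set apart among the PNST for *LOC119870569* (26.1 CPM), *LOC119872742* (24.4 CPM), *LOC119864851* (67.2 CPM), *LOC119868659* (17.8 CPM), *MIR1836* (62.2 CPM), *TRNAM-CAU-5* (19.4 CPM), *RABGGTB* (116 CPM), *REST* (42.8 CPM), *NEB* (23.9 CPM) and *BUB3* (63.3 CPM). S1-07, the only S1 PWT, was set apart for *EFEMP2* (34.5 CPM) and *CD248* (218 CPM). S1-04 had the highest PNST levels of *COL1A1* (13122 CPM), *COL1A2* (11876 CPM) and *ACTA2* (42.9 CPM).

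The remaining tumors set apart from their own type were S2-09 for *CHPF2* (56.1 CPM), S2-08 for *RASSF9* (24.8 CPM), S2-04 for *UBE2B* (122 CPM), S1-03 and S2-11 for *CSPG4* (187 and 117 CPM) and S1-09 for *S100B* (74.7 CPM). S2-03 stood apart among the PWT for *KRT10* (182 CPM), summed keratinocyte markers (1325 CPM) and summed lymphocyte markers (187 CPM).

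The effect within S1 and the effect within S2 differed for *TRAPPC3L*, a homolog of a vesicle tethering subunit, by -6.68 on the log2 scale (adjusted p = 0.0012 by edgeR's quasi-likelihood test of the interaction). S2-07 alone carried this value, at 367 CPM against 3.24 to 9.81 CPM in the other 11 tumors, and each prefix held 1 type with 1 tumor, so that a type effect that depends on the prefix was not shown.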

How the results depend on the processing

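Against 418 DEGs (146 higher in PNST and 272 in PWT), 0 were found with the prefix as a term, with that term over all 16 tumors, and by histological diagnosis. All 16 tumors without the term gave 67 (24 and 43), DESeq2 789 (286 and 503), no LOC, TRNA or MIR genes 187 (83 and 104), S1-04 and S1-05 summed 237 (71 and 166), and S1-10 and S2-08 left out 272 (98 and 174). Comparisons within S1 gave 0 and within S2 7 (7 and 0). Of the alternatives added after seeing the data, protein-coding genes only gave 166 (82 and 84), and leaving out S1-04, S1-05 and S2-03 gave 1 (0 and 1). With no fold limit, 224 genes were higher in PNST. Leaving out 1 tumor at a time gave 151 to 671 DEGs, 43 to 299 higher in PNST and 108 to 427 higher in PWT. With no filter on low counts, 20 genes were called within S1, 32 within S2 and 3 for the difference. The cause of these moves was not tested, beyond the fewer tumors or genes that some settings hold.

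Higher calls in PNST were 34.9% of DEGs, 44.4% without LOC, TRNA and MIR genes, and close to that with no filter (163 of 362). DESeq2 moved the median of all its genes by -0.22, and by 0.01 over the genes tested with edgeR. Over the named genes, 675 values lost their call, 32 gained one and 0 reversed. A reversal was counted only where the main or the alternative fit called the gene. Some uncalled genes changed direction between settings, such as *RGS5* (log2 fold changes of -0.57 to 0.60) and *KRT10* (-2.15 to 2.91). No paired analysis was possible because the labels give no number that pairs a PNST with a PWT. At 726025 to 4311876 counts per tumor, *SOX10* and 20 other Schwann cell markers were too low to test.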

Other observations

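S2-07 carried a group of highly expressed genes that no other of the 12 tumors shared. They are the 7 DEGs of the comparison within S2, each higher in S2-07 than in the 5 S2 PWT, and they were described as a group after their values were seen. *GSR*, glutathione reductase, was at 325 CPM in S2-07 and at 8.63 to 23.8 CPM in the other 11 tumors. *NQO1*, a quinone reductase, was at 223 CPM against 3.30 to 20.9 CPM, and *TXNRD1*, thioredoxin reductase, at 402 CPM against 47.0 to 91.8 CPM. *PTGR1*, which reduces prostaglandins and leukotrienes, was at 1227 CPM against 21.8 to 84.7 CPM. These 4 enzymes are known targets of the oxidative stress factor NRF2, and *CUL3*, the ligase scaffold that takes part in NRF2 turnover, was at 366 CPM against 47.0 to 85.2 CPM. *PROCR*, the protein C receptor, was at 175 CPM against 4.21 to 21.9 CPM, and *TRAPPC3L* at 367 CPM against 3.24 to 9.81 CPM. With 1 tumor, these levels have no replicate check.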
